A study of Mus musculus with 23 samples.

Results

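Zbtb16, Irs2, Fkbp5, Tsc22d3, Nr3c1, Dusp1, Ddit4, Klf9 and Hsd11b1 are genes known to respond to glucocorticoids or to fasting, or to act in that response. They were taken by symbol from the deposited table of gene counts, in which these 9 genes are 9 of 55449, each with 1 row. They were chosen by their measured counts in these libraries, with earlier results in view, and which comparison led to the choice is not recorded. Calls and p-values of the 9 genes are therefore given as descriptions and not as independent evidence.

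Glucocorticoids are steroid hormones of the adrenal gland that rise with stress, with fasting and with the daily rhythm. They bind the glucocorticoid receptor, encoded by Nr3c1, which is held ready by HSP90 and its co-chaperones and, once bound, enters the nucleus and switches target genes on or off. In fasting, low insulin releases FOXO transcription factors, so that genes such as Irs2 are induced in many tissues, and several targets answer to both signals. The colon can also make its own glucocorticoids and convert them locally.

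The libraries are from the colon of male Cdx2Apc f/w mice, which carry 1 floxed allele of Apc that is deleted by Cre under the Cdx2 promoter and form tumors in the colon and rectum. All groups started at 6 to 8 weeks of age, were fed a 60% high-fat diet (HFD) and, by the methods, had received antibiotics beforehand. They were colonized with Bacteroides fragilis strain 638R carrying either an empty vector (bsh-, BF BSHlow) or the bile salt hydrolase gene bsh of another B. fragilis strain (bsh+, BF BSHhigh), so that no group lacked the bacterium. RNA was taken from normal colon after 2 weeks (4 libraries per strain), and from non-tumor tissues (4 per strain) and tumors (4 for BF BSHlow, 3 for BF BSHhigh) after 12 weeks. The hour of tissue collection and any fasting before it are not given in the sources used here. Such genes are known to follow the hour and the last meal, whose part in the differences was not tested.

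The 23 libraries held 12401388 to 17903008 expected counts each. In the deposited table, the headings of 3 columns repeat the names of BF BSHlow tumors. They were taken as the BF BSHhigh tumors because a supplementary table of the study lists their values under that group, and every BF BSHhigh tumor value rests on this assignment. Which tumor each column holds is not known, and they are called replicates a, b and c. Colon epithelium markers were present in every group, with summed levels of 22925 to 32257 CPM (counts per 1000000 counts, scaled by TMM) at 2 weeks, 8046 to 11482 in non-tumor tissues and 3083 to 6364 in tumors. The 7 smooth muscle markers summed to 7.48 to 211 CPM at 2 weeks, 1574 to 8879 CPM in non-tumor tissues and 123 to 352 CPM in tumors. Squamous epithelium markers reached 29.4 to 143 CPM in tumors against at most 3.31 CPM elsewhere. The tissues compared thus differed in their cell makeup. In such bulk samples, fewer cells of a type and less RNA per cell cannot be told apart.

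Promoter sequence from RefSeq (GRCm38.p6) was used for 7 of the 9 genes, all but Zbtb16 and Nr3c1, as the 250 bases before each transcription start, with 9 starts in all. Searched on both strands, none of the 7 genes held ACANNNTGT, the core of a glucocorticoid response element, which was in 5.84% of all 32851 promoter entries of that length. The E-box CACGTG, bound by clock and other basic helix-loop-helix factors, was found in Dusp1, Fkbp5 and Irs2, and is in 6.02% of all entries. The FOXO motif TGTTTAC was found in Klf9 and Hsd11b1 and is in 3.17% of all. The cyclic AMP response element TGACGTCA was found in Dusp1 and is in 1.55% of all, and its shorter core TGACG, which overlaps it, was found in Dusp1, Klf9 and Tsc22d3 and is in 17.8% of all. A match of letters is not a bound site, and the absence of one in these windows says nothing of the receptor, which often binds far from the start. The 4 windows of 100 bases that hold most of these matches are shown 5′ to 3′ on the strand of the gene with the matches in capitals. They are chr17:26508573-26508672 (minus strand), 200 to 101 bases before the start of Dusp1, chr17:28486250-28486349 (minus strand), 200 to 101 bases before that of Fkbp5, chr8:11008930-11009029 (minus strand), 100 to 1 bases before that of Irs2, and chr19:23141106-23141205 (plus strand), 120 to 21 bases before that of Klf9. In Klf9, the FOXO motif reads on the opposite strand.
Dusp1: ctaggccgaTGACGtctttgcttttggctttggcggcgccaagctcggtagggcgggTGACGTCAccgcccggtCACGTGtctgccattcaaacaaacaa
Fkbp5: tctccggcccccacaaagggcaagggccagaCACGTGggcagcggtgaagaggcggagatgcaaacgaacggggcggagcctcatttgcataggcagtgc
Irs2: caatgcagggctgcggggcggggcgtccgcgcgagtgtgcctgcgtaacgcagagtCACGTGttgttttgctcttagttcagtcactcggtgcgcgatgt
Klf9: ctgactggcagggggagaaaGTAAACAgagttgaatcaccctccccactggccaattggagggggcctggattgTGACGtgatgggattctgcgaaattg

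The receptor gene was lower at 12 weeks than at 2 weeks, and lower again in tumors. Nr3c1 (ENSMUSG00000024431.15, chr18:39410545-39519421, GRCm38) stood at 170.8 to 225 CPM in BF BSHlow and 159.7 to 256 CPM in BF BSHhigh normal colon at 2 weeks. In non-tumor tissues at 12 weeks it was 99.1, 96.9, 104.6 and 86.3 CPM for BF BSHlow and 97.8, 92.8, 103.9 and 105.9 CPM for BF BSHhigh. In tumors it was 28.5, 30.5, 34.2 and 23.8 CPM for BF BSHlow and 42.6, 37.9 and 30.9 CPM for BF BSHhigh. The 3 tissues did not overlap, and the strains overlapped in each. Against 2 weeks, the log2 fold change in non-tumor tissues was -1.04 (SE 0.13, n = 4 and 4, adjusted p = 1.14e-05, edgeR quasi-likelihood test) for BF BSHlow and -1.09 (SE 0.13, adjusted p = 7.75e-06, edgeR) for BF BSHhigh. Tumors were lower than non-tumor tissues by a further log2 fold change of -1.72 (SE 0.11, adjusted p = 3.36e-08, edgeR) for BF BSHlow and -1.43 (SE 0.12, adjusted p = 9.09e-07, edgeR) for BF BSHhigh.

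Hsd11b1 (ENSMUSG00000016194.14, chr1:193221634-193264075), which encodes the enzyme that turns inactive 11-keto steroids into active glucocorticoids, had 6 to 24 counts per library at 2 weeks. These were 0.943 to 1.72 CPM for BF BSHlow and 0.547 to 1.20 CPM for BF BSHhigh. In non-tumor tissues it was 3.89, 5.61, 3.46 and 2.91 CPM for BF BSHlow, and 4.99, 3.16, 2.27 and 11.2 CPM for BF BSHhigh. All 12-week non-tumor libraries exceeded all 2-week libraries, and replicate 4 of BF BSHhigh stood above the rest of its group. That library also had 111.6 CPM of the summed adipocyte markers, though replicate 1, at 4.99 CPM of Hsd11b1, had 121 CPM of them, and their part was not tested.
In tumors, Hsd11b1 was 5.01, 2.38, 4.72 and 5.08 CPM for BF BSHlow and 9.02, 6.54 and 14.9 CPM for BF BSHhigh. Every BF BSHhigh tumor exceeded every BF BSHlow tumor, with a log2 fold change of 1.21 (SE 0.36, n = 4 and 3, adjusted p = 0.206, edgeR), which did not pass the threshold of 0.05. With DESeq2 it passed (adjusted p = 0.0413), where 3.95% of all genes tested were called higher. Hsd11b1 overlaps Lamb3 on the opposite strand, and the strand setting of the counting is not given in the sources used here. The same holds for Dusp1, which overlaps Ergic1.

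Fkbp5 (ENSMUSG00000024222.17, chr17:28399094-28517527), a co-chaperone of HSP90 that restrains the receptor and is itself a classic glucocorticoid target, varied among replicates. At 2 weeks it was 453, 208, 205 and 315 CPM for BF BSHlow and 322, 418, 233 and 258 CPM for BF BSHhigh. In non-tumor tissues it was 123, 179.9, 200.4 and 284 CPM for BF BSHlow and 218, 106.4, 135 and 108 CPM for BF BSHhigh. Tumors had 24.4, 16.9, 18.9 and 33.6 CPM for BF BSHlow and 61.0, 25.9 and 20.9 CPM for BF BSHhigh. Every tumor was below every other library. The log2 fold change of tumor against non-tumor tissues was -3.06 (SE 0.39, adjusted p = 8.89e-06, edgeR) for BF BSHlow and -1.99 (SE 0.41, adjusted p = 0.000946, edgeR) for BF BSHhigh. The difference between these effects was 1.07 on the log2 scale (SE 0.53, adjusted p = 0.553, edgeR interaction term). It was 0.47 to 1.36 with 1 library left out. In the separate fit of tumors alone, removal of tumor a turned the BF BSHhigh against BF BSHlow value from 0.58 to -0.03.

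Zbtb16 (ENSMUSG00000066687.5, chr9:48654297-48836222), encoding the zinc finger repressor PLZF and among the genes that glucocorticoids induce most steeply in many tissues, had the widest range. At 2 weeks it was near the limit of detection, with 1, 1, 5 and 5 counts (0.0771 to 0.471 CPM) for BF BSHlow and 2, 3, 10 and 1 counts (0.0801 to 0.75 CPM) for BF BSHhigh. In non-tumor tissues at 12 weeks it was 13.01, 21.7, 16.1 and 19.3 CPM for BF BSHlow and 6.78, 7.32, 5.77 and 6.38 CPM for BF BSHhigh. In tumors it was 2.56, 0.556, 0.425 and 1.64 CPM for BF BSHlow and 0.57, 1.06 and 0.473 CPM for BF BSHhigh. All 12-week non-tumor libraries were thus above all other libraries, and within them all 4 BF BSHhigh libraries were below all 4 BF BSHlow libraries.
From the summed counts, Zbtb16 was 73.7-fold higher in non-tumor tissues than at 2 weeks for BF BSHlow (1084 against 12 counts, exact 95% interval 42 to 143) and 20.6-fold higher for BF BSHhigh (408 against 16 counts, 12.5 to 36.3), intervals that cover counting error only. Of the 16 counts, 10 came from replicate 3. The fitted log2 fold changes were 6.11 (SE 0.47) and 4.36 (SE 0.45). Without that replicate the value for BF BSHhigh was 5.28. The gene entered these fits only through its 12-week counts, where it is high, so the p of these rises is not given. Tumors were below non-tumor tissues by a log2 fold change of -3.73 (SE 0.46, adjusted p = 7.24e-06, edgeR) for BF BSHlow and -3.21 (SE 0.53, adjusted p = 0.000157, edgeR) for BF BSHhigh.
Between the strains, the log2 fold change of Zbtb16 in non-tumor tissues was -1.41 (SE 0.18, means of 17.5 ± 3.79 and 6.56 ± 0.655 CPM (SD), n = 4 and 4). Its unadjusted p was 2.47e-05, while its adjusted p of 0.181 (edgeR, over 14933 genes) missed the threshold. The adjusted p was between 2.3e-08 (DESeq2) and 0.551 (edgeR with 1 library left out) over 15 alternatives, and the log2 fold change was between -1.52 and -1.29.

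**Figure D1:**
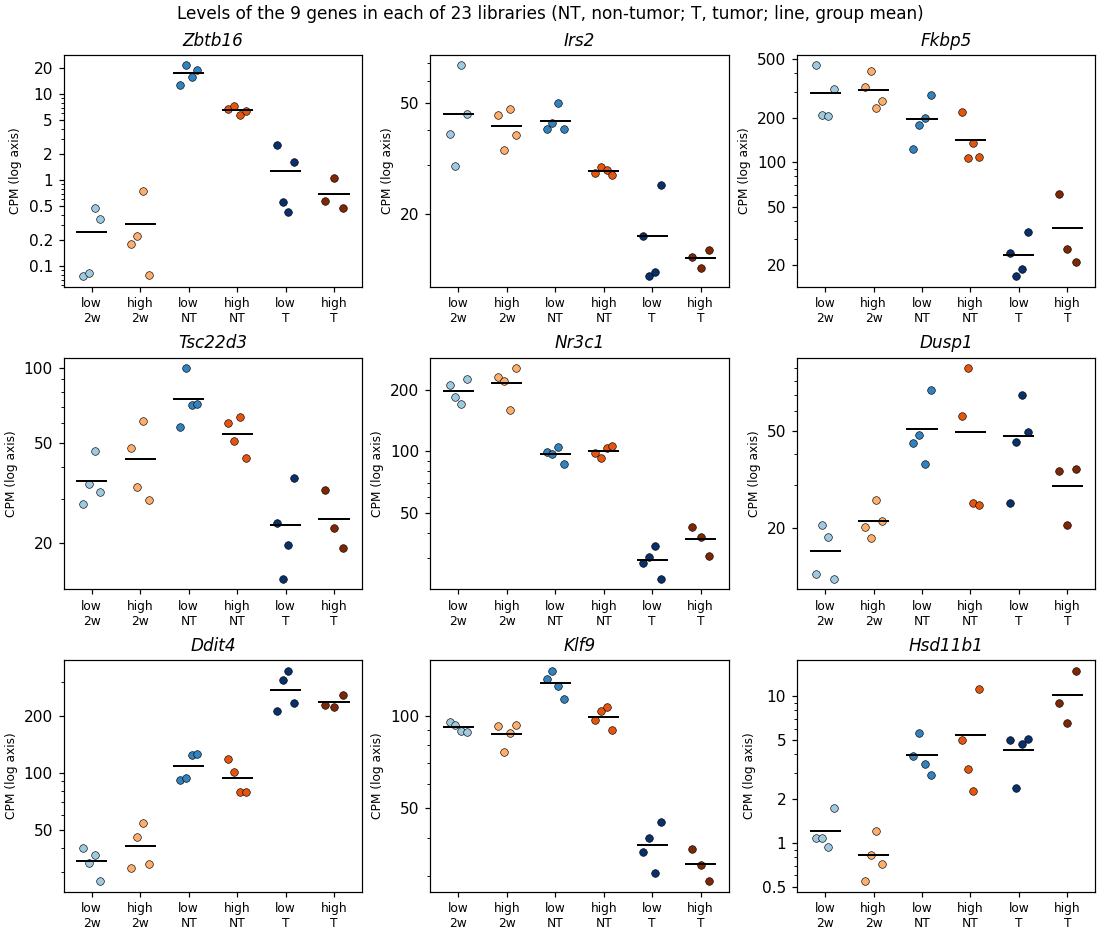
CPM (log axis) of the 9 genes in every library, by strain (BF BSHlow, BF BSHhigh) and tissue (2-week normal colon, 12-week non-tumor tissues, 12-week tumors), with a line at each group mean. Zbtb16 in non-tumor tissues sits at 13.01 to 21.7 CPM for BF BSHlow and 5.77 to 7.32 CPM for BF BSHhigh, and Nr3c1 falls from tissue to tissue.

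Zbtb16 was high in the tissues in which smooth muscle markers were high. Among non-tumor tissues, BF BSHlow libraries 1 and 4 had the lowest summed smooth muscle levels of the 8 (1951 and 1574 CPM) and 13.01 and 19.3 CPM of Zbtb16, whereas the BF BSHhigh libraries had 3380 to 4434 CPM of the markers and at most 7.32 CPM of Zbtb16. Summed fibroblast markers overlapped between the strains (315 to 3293 CPM for BF BSHlow, 667 to 1255 CPM for BF BSHhigh), and all 6 had negative log2 fold changes in BF BSHhigh (median -0.73), as Zbtb16 did. The 4 erythrocyte markers had a median of 2.19. None of these markers passed the test, and their part in the strain difference was not tested. Between time points and between tumor and non-tumor tissues, all 7 smooth muscle markers passed the test in the direction of Zbtb16 in both strains. All 5 B and plasma cell markers also fell in tumors in both, and 5 (BF BSHlow) and 3 (BF BSHhigh) rose with time. All 6 fibroblast and all 4 macrophage markers rose with time in both strains, but in tumors only 1 and 0 of them fell. The gene and the cell makeup of the sample, muscle included, thus cannot be told apart there.

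**Figure D2:**
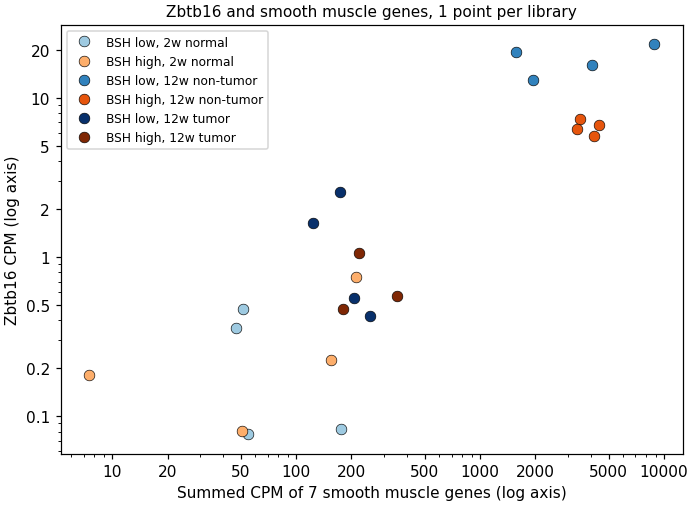
Zbtb16 (CPM, log axis) against the summed level of 7 smooth muscle markers (CPM, log axis), 1 point per library, coloured by strain and tissue. The 4 BF BSHhigh non-tumor libraries lie at 5.77 to 7.32 CPM of Zbtb16, below all 4 BF BSHlow non-tumor libraries, which span 1574 to 8879 CPM of the markers.

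Klf9 (ENSMUSG00000033863.2, chr19:23141226-23168134), a Krüppel-like factor induced directly by glucocorticoids and, in its rhythm, by the clock, varied little within groups. It was 88.2 to 95.3 CPM in BF BSHlow and 76.0 to 93.4 CPM in BF BSHhigh normal colon at 2 weeks. In non-tumor tissues it was 131, 140.1, 125 and 113 CPM for BF BSHlow and 96.7, 103.5, 106.4 and 89.8 CPM for BF BSHhigh, and these strains did not overlap. Tumors were at 30.7 to 45.1 CPM for BF BSHlow and 28.9 to 36.7 CPM for BF BSHhigh, below every other library. The strains differed in non-tumor tissues by a log2 fold change of -0.36 (SE 0.09, adjusted p = 0.328, edgeR, and 0.0245 with DESeq2). Klf9 was higher at 12 than at 2 weeks for BF BSHlow (log2 fold change 0.47, SE 0.09, adjusted p = 0.000415, edgeR), whereas the value for BF BSHhigh was 0.21 (SE 0.09, adjusted p = 0.0576, edgeR) and passed without 2-week or non-tumor replicate 4 (0.24 and 0.25, adjusted p = 0.047 and 0.0347, edgeR). In tumors against non-tumor tissues it was -1.73 (SE 0.11, adjusted p = 3.23e-08, edgeR) and -1.60 (SE 0.13, adjusted p = 4.48e-07, edgeR).

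Tsc22d3 (ENSMUSG00000031431.13, chrX:140539528-140600659) encodes GILZ, a glucocorticoid-induced leucine zipper protein that restrains inflammatory transcription factors. It rose from 28.6 to 46.7 CPM at 2 weeks to 57.9 to 99.9 CPM in non-tumor tissues of BF BSHlow (log2 fold change 1.08, SE 0.23, adjusted p = 0.00123, edgeR), without overlap. For BF BSHhigh, 29.6 to 61.4 CPM at 2 weeks and 43.5 to 63.7 CPM at 12 weeks overlapped (0.37, SE 0.23, adjusted p = 0.192, edgeR), and without replicate 3 at 2 weeks the gene passed (0.59, adjusted p = 0.0375, edgeR). In tumors it was 14.4 to 36.3 CPM for BF BSHlow and 19.0 to 32.4 CPM for BF BSHhigh, lower than in non-tumor tissues in both (log2 fold changes -1.66 and -1.15, SE 0.26 and 0.28, adjusted p = 6.59e-05 and 0.00331, edgeR).

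Dusp1 (ENSMUSG00000024190.7, chr17:26505590-26562128), a phosphatase that switches off MAP kinases and answers both to glucocorticoids and, as an immediate early gene, to growth signals and tissue handling, was uneven in non-tumor tissues. Its levels there were 44.7, 48.1, 36.5 and 73.2 CPM for BF BSHlow and 57.2, 90.0, 25.3 and 24.9 CPM for BF BSHhigh. At 2 weeks they were 12.4 to 20.7 CPM and 18.2 to 26.1 CPM. The rise with time had a log2 fold change of 1.64 (SE 0.36, adjusted p = 0.00167, edgeR) for BF BSHlow, without overlap. For BF BSHhigh it was 1.23 (SE 0.36, adjusted p = 0.00973, edgeR), with overlap, and without replicate 2 of the non-tumor group it was 0.76 (adjusted p = 0.0509, edgeR). Tumors, at 25.4 to 70.2 CPM for BF BSHlow and 20.6 to 34.7 CPM for BF BSHhigh, overlapped non-tumor tissues. Replicate 2, highest in Dusp1, was also highest of the 23 libraries in the summed immediate early genes (932 CPM against 302 to 790 CPM in the others), and the part of tissue handling was not tested.

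Ddit4 (ENSMUSG00000020108.4, chr10:59949669-59951834) encodes REDD1, an inhibitor of mTORC1 induced by glucocorticoids, fasting and low oxygen. It was the one gene of the 9 that edgeR called higher at each step in both strains. Mean levels of Hsd11b1 also rose at each step, without a call in tumors. Ddit4 was 26.8 to 40.1 CPM for BF BSHlow and 31.5 to 54.1 CPM for BF BSHhigh at 2 weeks. In non-tumor tissues it was 91.5, 94.1, 123 and 125 CPM for BF BSHlow and 118, 100.8, 78.7 and 79.4 CPM for BF BSHhigh. Tumors had 211, 307, 345 and 232 CPM for BF BSHlow and 227, 223 and 258 CPM for BF BSHhigh. The 3 tissues did not overlap. The log2 fold change from 2 to 12 weeks was 1.66 (SE 0.19, adjusted p = 7.71e-06, edgeR) for BF BSHlow and 1.23 (SE 0.19, adjusted p = 9.71e-05, edgeR) for BF BSHhigh. From non-tumor tissues to tumors it was 1.34 (SE 0.18, adjusted p = 1.55e-05, edgeR) and 1.32 (SE 0.19, adjusted p = 5.1e-05, edgeR), opposite in direction to Nr3c1, Fkbp5, Zbtb16, Klf9, Tsc22d3 and Irs2.

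Irs2 (ENSMUSG00000038894.7, chr8:10984681-11008458), the insulin receptor substrate that FOXO factors induce when insulin is low, separated the strains in non-tumor tissues. At 2 weeks it was 38.9, 29.8, 68.4 and 45.9 CPM for BF BSHlow and 45.3, 33.9, 47.7 and 38.5 CPM for BF BSHhigh. In non-tumor tissues it was 40.6, 42.4, 49.9 and 40.6 CPM for BF BSHlow and 28.2, 29.5, 28.8 and 27.8 CPM for BF BSHhigh. The latter 4 libraries lay close together, and below every BF BSHlow non-tumor library and every 2-week library.
The strain difference in non-tumor tissues was a log2 fold change of -0.60 (SE 0.08, means of 43.4 ± 4.45 and 28.6 ± 0.772 CPM (SD), n = 4 and 4), with an unadjusted p of 5.06e-05 and an adjusted p of 0.181 (edgeR). Over 15 alternatives its adjusted p was between 1.29e-05 (DESeq2) and 0.551 (edgeR with 1 library left out). Against 2 weeks, the value for BF BSHhigh was -0.51 (SE 0.19, adjusted p = 0.0357, edgeR), a call that was lost when any of 6 of the 8 libraries was left out (adjusted p up to 0.0928, edgeR) and with library size scaling. For BF BSHlow it was -0.08 (SE 0.19, adjusted p = 0.739, edgeR) and 0.14 with library size scaling. Tumors, at 16.7, 12.0, 12.4 and 25.5 CPM for BF BSHlow and 14.04, 12.9 and 14.9 CPM for BF BSHhigh, were below non-tumor tissues (log2 fold changes -1.37 and -1.04, SE 0.19 and 0.21, adjusted p = 2.4e-05 and 0.000824, edgeR).

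Per kilobase of exon, the order of the 9 genes changed between tissues. In BF BSHlow normal colon at 2 weeks, mean levels per kilobase were led by Fkbp5 (31.2 CPM per kb) and Nr3c1 (25.7 CPM per kb), followed by Ddit4 (19.5) and Klf9 (19.0). In BF BSHlow tumors, Ddit4 stood at 156 CPM per kb, Dusp1 at 14.4 and the other 7 at most at 7.88 (Klf9). Hsd11b1 and Zbtb16 were lowest at 2 weeks, at 0.283 and 0.0468 CPM per kb. In BF BSHlow non-tumor tissues Zbtb16, at 3.32 CPM per kb, exceeded Hsd11b1 at 0.934.

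Each comparison across all genes gives the background for the 9. Between the strains at 2 weeks, 8 of the 9 genes could be tested, Zbtb16 having too few counts, and none passed, where edgeR called 0.00727% of the genes (1 of 13752, with 935 at an unadjusted p under 0.05). Their log2 fold changes were -0.55 to 0.40, and all 9 overlapped between the strains, where 3.54% of all genes did not. DESeq2 called none of the 9, where it called 0.378% of all genes.
In non-tumor tissues none of the 9 passed, where edgeR called 0% of the genes (0 of 14933, with 1377 at an unadjusted p under 0.05, and 194 called by DESeq2). DESeq2 called Zbtb16, Irs2 and Klf9 lower in BF BSHhigh, where it called 0.281% of all genes lower. The same 3 genes did not overlap between the strains, where 2.61% of all genes were lower without overlap. Of the other 6, Tsc22d3 was lowest in p (log2 fold change -0.46, SE 0.17, adjusted p = 0.5, edgeR).
In tumors none of the 9 passed, where edgeR called 0.509% of the genes, and DESeq2 called Hsd11b1. Without overlap, Hsd11b1 was higher, where 8.3% of all genes were higher in that way. The median log2 fold change of the 9 was 0.09 at 2 weeks over the 8 tested, -0.36 in non-tumor tissues and -0.23 in tumors, beside 0.00, -0.01 and -0.03 over all genes.

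**Figure D3:**
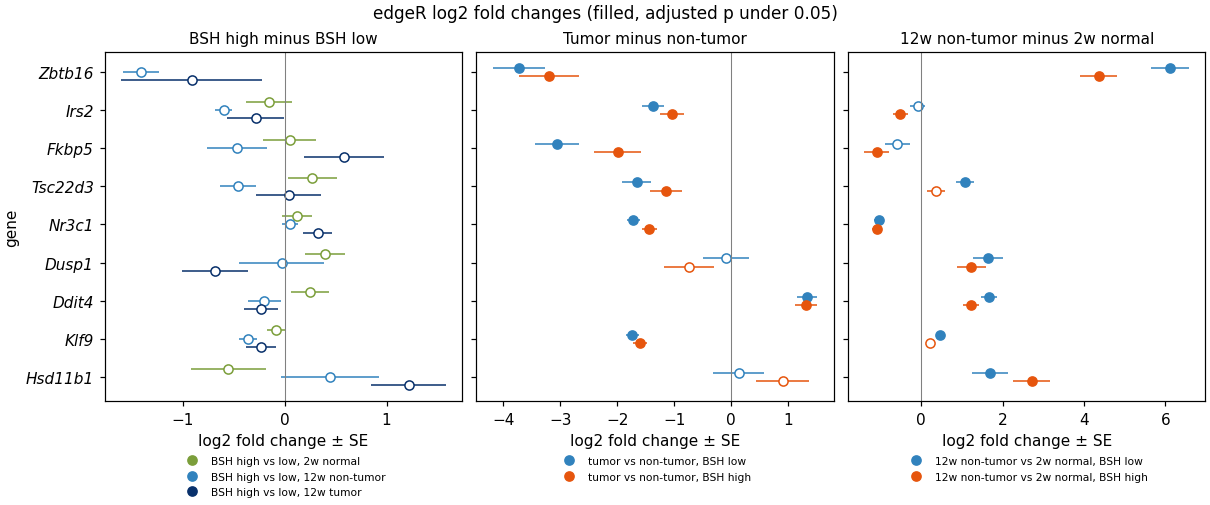
Log2 fold changes with SE (bars) from edgeR for the 9 genes in 7 comparisons. Filled points passed an adjusted p of 0.05 and open points did not. No point in the panel of BF BSHhigh minus BF BSHlow is filled, while 7 of the 9 genes are filled in each of the other 4 comparisons.

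Tumors differed from non-tumor tissues in most genes, and so did the 9. For BF BSHlow, Ddit4 rose and Zbtb16, Irs2, Fkbp5, Tsc22d3, Nr3c1 and Klf9 fell, that is 7 of 9 called, where 65.5% of all genes were called (33.3% higher and 32.2% lower). For BF BSHhigh the same 7 genes were called in the same directions, where 56.6% were called (29.4% higher and 27.2% lower). The groups did not overlap for these 7 genes in either strain, where 56.6% of all genes did not overlap for BF BSHlow and 61.1% for BF BSHhigh. Dusp1 and Hsd11b1 were not called in either strain (log2 fold changes -0.09 and 0.13 for BF BSHlow, -0.74 and 0.91 for BF BSHhigh). For BF BSHhigh, Hsd11b1 passed without non-tumor replicate 4 (1.54, adjusted p = 0.00571, edgeR) and with limma-voom (1.13, adjusted p = 0.0329), and had 0.52 without tumor c. Dusp1 had -0.27 without non-tumor replicate 2. The median of the 9 was -1.66 for BF BSHlow and -1.15 for BF BSHhigh, against 0.04 and 0.04 over all genes.
TMM scaling, which sets the bulk of genes to no change, gave 5485 genes higher and 5299 lower for BF BSHlow, against 7727 and 3807 with plain library size scaling, whose median over all genes was 0.37 (BF BSHlow) and 0.35 (BF BSHhigh). With library size scaling the 7 called genes kept their directions, Hsd11b1 also passed for BF BSHhigh (1.22, adjusted p = 0.0386, edgeR), and Dusp1 for BF BSHlow turned to 0.24 without passing. The tests of whether the strain effect differed between tumor and non-tumor tissues called 0 of the 9 genes with edgeR and with DESeq2, where edgeR called 0.991% of all genes (1580 had an unadjusted p under 0.05) and DESeq2 2.57%.

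From 2 to 12 weeks, Zbtb16, Tsc22d3, Dusp1, Ddit4, Klf9 and Hsd11b1 rose and Nr3c1 fell for BF BSHlow, 7 of 9, where 49.1% of all genes were called (25.6% higher and 23.5% lower). For BF BSHhigh, Zbtb16, Dusp1, Ddit4 and Hsd11b1 rose and Irs2, Fkbp5 and Nr3c1 fell, where 49.8% were called (27% higher and 22.7% lower). Zbtb16 is counted in both strains, though it entered these fits only through its 12-week counts, where it is high. For BF BSHlow 7 of the 9 did not overlap, and for BF BSHhigh 6 did not (3 higher and 3 lower), against 39.9% and 47.9% of all genes. Length of diet and colonization, age, cohort and the layers of tissue sampled, as seen in the smooth muscle and epithelium markers, cannot be told apart here. The shift of all genes with library size scaling was 0.23 for BF BSHlow and 0.31 for BF BSHhigh, and with it Tsc22d3 and Klf9 also passed for BF BSHhigh (0.65 and 0.50, adjusted p = 0.0255 and 0.000537, edgeR) and Irs2 no longer did.
Although the called genes were not the same in the strains, none of the 9 interaction terms of strain and time passed with edgeR or DESeq2, where edgeR called 0% of all genes (0 of 15532, with 1135 at an unadjusted p under 0.05, and 40, or 0.258%, called by DESeq2). Zbtb16 had a difference of -1.75 on the log2 scale (SE 0.70, adjusted p = 0.619, edgeR), which was -0.83 without replicate 3 of BF BSHhigh at 2 weeks. Tsc22d3 had -0.71 (SE 0.32, adjusted p = 0.665, edgeR) and Klf9 -0.26 (SE 0.12, adjusted p = 0.678, edgeR).

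The other genes of the pathway were read from 6 lists. Between the strains, no gene of the 6 lists passed at 2 weeks, in non-tumor tissues or in tumors with edgeR. Among 18 other genes that glucocorticoids induce, the clock gene Per1 and the metallothionein Mt2, which binds zinc, had the smallest p in non-tumor tissues (log2 fold changes -0.52, SE 0.11, and 1.34, SE 0.34, adjusted p = 0.327 and 0.332, edgeR). The list's median was -0.14 against -0.01 over all genes. Ppargc1a and Klf15, fasting-induced regulators of energy metabolism, stood at -0.40 and -0.64 (adjusted p = 0.507 and 0.522, edgeR).
In tumors, the largest value of the fasting list was that of Pck1, the rate-limiting enzyme of gluconeogenesis. It had 0 to 5 counts per BF BSHlow and 13 to 240 per BF BSHhigh tumor. Pck1 entered this fit only through the BF BSHhigh tumors, where it is high, and its p is not given. The largest value of the steroid list was that of Hsd11b2, which inactivates glucocorticoids and so acts against Hsd11b1 (3.39, SE 0.72, adjusted p = 0.0846, edgeR). Nr3c2, the mineralocorticoid receptor, which also binds glucocorticoids, had 1.53 (SE 0.29, adjusted p = 0.0588, edgeR). Between these tumors 2 of 8 colon epithelium markers were called higher in BF BSHhigh, where 0.47% of all genes were. The 5 tested T cell markers had a median of 2.33 with none called. Of 3 tested B and plasma cell markers 1 was called higher. The markers of that list summed to 0.29 to 5.95 CPM for BF BSHlow and 88.2 to 118 CPM for BF BSHhigh. Squamous epithelium markers summed to 54.0 to 143 CPM and 29.4 to 38.5 CPM, with none called. The part of these cells was not tested.

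In tumors against non-tumor tissues, 6 of 18 other glucocorticoid-induced genes rose and 8 fell for BF BSHlow, and 5 rose and 8 fell for BF BSHhigh, with medians of 0.21 and 0.05 beside 0.04 and 0.04 over all genes. These and the counts of the other lists stand beside 33.3% of all genes higher and 32.2% lower for BF BSHlow, and 29.4% and 27.2% for BF BSHhigh. The medians of the 9 were -1.66 and -1.15. Mt2 rose (3.03, SE 0.38, adjusted p = 9.3e-06, edgeR) for BF BSHlow, and its value for BF BSHhigh, 1.78, was the highest of the list. The difference between the strains was -1.25 (SE 0.53, adjusted p = 0.445, edgeR interaction term) and did not pass. The macrophage scavenger receptor Cd163 fell in both strains (-4.35 and -4.14), as did Hif3a (-3.52 and -2.35), a member of the family of hypoxia-inducible factors. Only 17 of the 18 genes of this list, Hif3a among them, could be tested between the tumors alone. A large fall such as that of Cd163 can thus rest on few tumor counts. Of 15 fasting and insulin-FOXO genes, 10 fell and 2 rose for BF BSHlow and 9 fell and 1 rose for BF BSHhigh. Pck1 had 0 to 5 counts per BF BSHlow tumor and 13 to 240 per BF BSHhigh tumor, against 1100 to 3022 in non-tumor tissues. Txnip (-3.12 and -1.86), which limits glucose uptake, and Ppargc1a (-2.22 and -1.77) also fell.
Of the 7 genes of corticosteroid receptors and chaperones other than Nr3c1, 6 rose in both strains, among them Hsp90ab1 (1.29 and 1.18) and its co-chaperone Stip1 (1.32 and 1.18), and Nr3c2 fell (-4.43 and -2.68). Hsd11b2 fell by 6.65 for BF BSHlow and by 3.44 for BF BSHhigh on the log2 scale, and Nr5a2, which drives steroid synthesis in the gut, fell by 6.15 and 3.77. Cyp11a1, the enzyme at the start of steroid synthesis, had 0 to 2 counts per non-tumor library and 10 to 44 per tumor for BF BSHhigh. It could be tested only in fits that held the tumors, where it is high, and its p is not given. Of 15 clock genes, 11 fell and 1 rose for BF BSHlow, and 9 fell and 1 rose for BF BSHhigh, led by Hlf (-4.39) and Dbp (-3.44) for BF BSHlow. Immediate early genes were mixed, with Jun higher in both strains (1.24 and 1.12) and Btg2 lower (-0.96 and -0.67). With edgeR, the strain effect differed between tumors and non-tumor tissues for Pck1 (adjusted p = 0.0421, edgeR), Nr3c2 (1.74, adjusted p = 0.0165, edgeR) and Hlf (3.28, adjusted p = 0.0261, edgeR). It called 0.991% of all genes there. With limma-voom, 0 of 16454 genes passed this test, so these calls depend on the method. In the edgeR test 3 of 8 colon epithelium markers and 1 of 5 B and plasma cell markers were called higher, with medians of 0.94 and 2.20. The 6 T cell markers had a median of 1.98 with none called, and the part of these cells was not tested.

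From 2 to 12 weeks, 6 other glucocorticoid-induced genes rose and 5 fell for BF BSHlow, and 4 rose and 6 fell for BF BSHhigh, of 18 each. These and the counts of the other lists stand beside 25.6% of all genes higher and 23.5% lower for BF BSHlow, and 27% and 22.7% for BF BSHhigh. Mt1 and Mt2 fell in both strains (Mt1 -3.39 and -3.02, Mt2 -4.77 and -3.45), opposite to Zbtb16. Cd163 rose for BF BSHlow (3.85, SE 0.77), from 2 to 10 counts per library at 2 weeks. It entered this fit through its 12-week counts, where it is high, and its p is not given. Macrophage markers summed to 8.58 to 26.2 CPM at 2 weeks and 34.0 to 129 CPM in non-tumor tissues, and their part was not tested. Of the fasting list 5 rose and 4 fell for BF BSHlow and 4 rose and 5 fell for BF BSHhigh. Irs1, the sister gene of Irs2, rose in both (3.88 and 3.26), unlike Irs2 itself. These rises start from few counts at 2 weeks, 9 to 23 per BF BSHlow and 6 to 35 per BF BSHhigh library. The clock genes were divided, with 4 higher and 1 lower for BF BSHlow and 3 higher and 4 lower for BF BSHhigh. Hlf rose in both (1.99 and 1.51). No gene of the 6 lists passed the interaction test of strain and time.

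**Figure D4:**
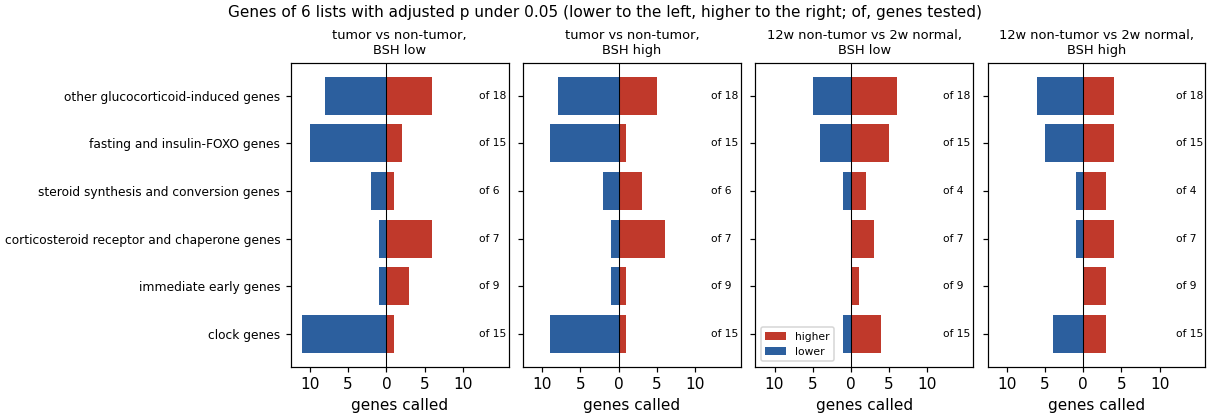
Number of genes of 6 lists called lower (left of 0) and higher (right of 0) by edgeR in 4 comparisons, with the number tested at the right of each bar. Fasting and clock genes are mostly lower in tumors, at 10 and 11 of 15 for BF BSHlow, while 6 of 7 receptor and chaperone genes are higher.

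Within groups, the 9 genes did not move as 1 block. After each group mean was taken away, the correlation across the 23 libraries was 0.65 between Irs2 and Tsc22d3, 0.63 between Zbtb16 and Tsc22d3, and 0.63 between Zbtb16 and Irs2. Fkbp5 had 0.07 with Zbtb16 and 0.11 with Irs2, and Nr3c1 had -0.56 with Zbtb16. These are descriptions over libraries that share scaling and tissue makeup, and no p is given. Zbtb16 had 1 to 10 counts per library at 2 weeks, so counting error enters its deviations there. Of 14386 genes outside the 9 with a mean of at least 1 CPM, the most like Zbtb16 were Foxa2 (0.89), Gata2 (0.88) and Bmp5 (0.85), and the most like Irs2 were Rasd2 (0.85), Afap1l2 (0.84) and Glul (0.81). For Fkbp5 they were Plcd1 (0.81), Fuca2 (0.79) and Abhd3 (0.78), and for Dusp1 Serf1 (0.80), Jund (0.79) and Arf5 (0.77).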

How the data were processed

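Gene-level RNA-seq of mouse colon was used, 23 libraries in 6 groups. Per the methods and the submitters' processing notes, the authors used Cutadapt to trim, STAR to align to mm10, and Picard, and deposited expected counts per gene from RSEM without normalization, versions not given in the sources used here. Of the values 4.24% were not whole. The counts of the 9 genes were whole. A row with text in a cell and a blank row were left out. Gene identifiers are those of GENCODE M21 (GRCm38).

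Rounded counts entered edgeR 4.0.16 (quasi-likelihood F test, R 4.3.3, TMM, filterByExpr, Benjamini-Hochberg over all genes tested, threshold 0.05). Strains were compared within a tissue, with only those 2 groups in the fit. Tumor and non-tumor tissues shared a fit of 15 libraries, and 2-week and 12-week tissues a fit of 16, each with an interaction term. CPM used TMM. The marker and pathway lists, and the 9 genes, were chosen with earlier results of these data known. In each list and comparison the up to 3 called genes with the largest change were eligible to be named, or the 2 with the smallest p where none was called. Alternatives were DESeq2 1.42.0, limma-voom (limma 3.58.1), RLE scaling, no filter on low counts, a single fit of all libraries, an added 2-fold limit, a replicate block, leaving out each library and, added after seeing the data, library size scaling and a fit of the BF BSHlow groups alone. Levels were also set on the deposited library totals. The fits were tested on simulated data. Whether libraries came from separate animals is not stated for each, so p-values measure the spread between these samples, and intervals cover counting error only. Chi-square per degree of freedom between replicates was 16.6 to 126, so none were merged. A result for 1 gene of the fasting list is not reported here.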

Additional observations from a re-analysis of the deposited data

Results flagged for a closer look

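Among 45 sets of 4 libraries (the 9 genes in 5 groups, on the CPM scale), 1 had a library far from the other 3, where chance flags about 1 in 20. Hsd11b1 in replicate 2 of the BF BSHlow tumors was 2.38 CPM, against 4.72, 5.01 and 5.08 CPM, a gap of 0.869 of the range where 0.829 is the limit. Without that library, the log2 fold change of Hsd11b1 in BF BSHhigh against BF BSHlow tumors was 1.02 (adjusted p = 0.272, edgeR) in place of 1.21, and with it the gene was no call either. None of the 18 interaction terms of the 9 genes passed the test with edgeR.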

How the results depend on the processing

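Of 155 recounts of the called genes among the 9, 153 stayed within 1.5 times the count reported. The others were those of DESeq2 between the strains, with 3 in non-tumor tissues and 1 in tumors in place of 0, and the cause was not tested. Of 1299 refitted log2 fold changes of single genes, 31 of 11 results changed sign, none with an adjusted p under 0.05 (edgeR or limma), 9 lost a call and 14 gained one. With library size scaling the sign changed for Fkbp5 between the strains at 2 weeks (-0.026), Dusp1 in BF BSHlow tumors against non-tumor tissues (0.24), Irs2 in BF BSHlow from 2 to 12 weeks (0.14) and Nr3c1 in the interaction of strain and time (0.0082), and with limma-voom for Ddit4 in the interaction of strain and tissue (0.0062). Leaving out 1 library at a time, the strain difference at 2 weeks spanned -0.32 to 0.11 for Irs2 and -0.12 to 0.32 for Fkbp5. In non-tumor tissues it spanned -0.49 to 0.21 for Dusp1 and -0.19 to 0.70 for Hsd11b1, and in tumors -0.41 to 0.00062 for Irs2, -0.025 to 0.85 for Fkbp5 and -0.20 to 0.33 for Tsc22d3. Tumor against non-tumor values of Dusp1 for BF BSHlow spanned -0.34 to 0.16, and 12 against 2 weeks of Irs2 for BF BSHlow -0.24 to 0.18. The interaction of strain and tissue spanned -0.14 to 0.12 for Ddit4, and that of strain and time -0.18 to 0.038 for Nr3c1. Labels share replicate numbers but give no shared animal, and same-numbered libraries deviated together in some pairs only (correlations -0.22 to 0.32). With the replicate number as a block, the counts of called genes were 0 and 0 between the strains at 2 weeks and in non-tumor tissues, 7 in BF BSHlow tumors and 7 and 7 from 2 to 12 weeks, as without it. Set on deposited library totals, 13 of the mean levels moved by more than their SD and 41 did not. Zbtb16 at 2 weeks and Hsd11b1 at 2 weeks rest on few counts, which limits their fold changes.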
